A study of Zea mays with 10 samples.

Results

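The 10 genes described here make, bind, break down or answer 5 plant hormones in maize. They are an1 and GA20 for gibberellin, abp1 and NIT2 for auxin, cko2 and crr1 for cytokinin, ACO20, ACO31 and ERF1 for ethylene, and vp1 for abscisic acid. They were chosen by name, as the symbol or a synonym in the probe annotation or the reference gene table, from 1108 genes that the annotation named. The 10 genes had 13 of the 17621 probe sets that were left once array controls were set aside. The choice of names was made with the differences between lines on these same arrays known, so their levels are described below with no p-value, and counts of calls among them are set beside those over all probe sets with nothing read from them. All 10 genes had a probe set bright enough to be fitted, and the 3 probe sets that were not all belonged to vp1.

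Stem RNA of 5 inbred maize lines was measured on the Affymetrix maize array, with 2 arrays per line, in a study that set out to learn how stem tissue relates to the digestibility of the cell wall. Per the labels, F7025 came from IodentXF113bm3 and F7033 from (LorenaXF252)XF252, and both had yellow grain of Flint-Dent type. F98902 came from Iodent and had Dent grain, F2 came from lacaune and had Flint grain, and Cm484 came from 200-2-1 and had Flint-Dent grain. All plants were untreated, were planted on one date and were harvested on one date, and each array held the RNA of a pool of 5 plants. The labels do not say whether the pools came from separate plots, so the spread between the 2 arrays of a line may be partly technical. An inbred line is 1 genotype, so a difference between lines can rest on any of the loci at which they differ.

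Plant hormones are small molecules whose level is set by enzymes of synthesis and of breakdown, and whose effect is passed on by receptors and transcription factors. Gibberellin and auxin drive the elongation of stem internodes, cytokinin acts on cell division and on the vascular cambium and meristems, ethylene acts in ripening, senescence and flooding, and abscisic acid acts in drought and seed maturation. Cytokinin signals pass along a relay in which histidine kinase receptors hand a phosphate to phosphotransfer proteins and these hand it to response regulators.

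Values are on the log2 scale of GCRMA, so a difference of 1 is a change of 2-fold, and dim probe sets are drawn to a floor near 2. A line mean under 4 was read as near that floor, and a fold against such a line is given as at least so many fold. Levels of different probe sets were not set against each other, because probes differ in how strongly they bind. Between 57.5% and 58.3% of all probe sets had a value of at least 4 on each array. The correlation between the 2 arrays of a line across probe sets lay between 0.985 in F98902 and 0.997 in F2. The SD of the gap between the 2 arrays over tested probe sets was 0.606 in F98902 and 0.276 in F2. Extracts of 20 µg of RNA stood behind 1 array each of F98902, F2 and Cm484 (replicate 2), and 60 to 100 µg behind the other 7 arrays. Of 6 stem and secondary wall markers, 5 were found and were over 4 on every array, among them the homeobox gene kn1 (9.06 to 9.76) and the secondary wall cellulose synthase CesA12 (10.58 to 12.04). All 4 leaf photosynthesis markers that were found were over 4 on every array as well. A line with fewer cells of a type cannot be told apart from a line with less RNA of a gene per cell.

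All 10 tested member probe sets passed the moderated F-test among the 5 lines, and 73.9% of all 11067 tested probe sets did so too. Since the members were picked with these differences known, nothing is read from that count. Their line means spanned a median of 3.43 log2 from the lowest to the highest line, beside 1.03 over all tested probe sets. A span of at least 2 log2 was reached by 9 of 10 members and by 21.8% of tested probe sets. F98902 was the highest line for 4 members (an1, abp1, cko2 and ERF1), F7033 and F2 for 2 each, and F7025 and Cm484 for 1 each. F7033 was the lowest line for 4 members (abp1, cko2, crr1 and ACO31), and F2 was the lowest for none. The share of all probe sets that were highest or lowest in each line is not given here, so nothing is read from these counts.

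Neighbours in the order of line means are said here to lie apart where both arrays of one exceed both arrays of the other and the means differ by more than the sum of the 2 SDs. This held for 23 of 40 neighbouring steps of the members and for 37.7% of such steps over all tested probe sets. The highest line lay apart from the next for 7 of 10 members, beside 43.7% of tested probe sets. The lowest line lay apart for 5 of 10, beside 40.2%. Of the 100 combinations of a member and a pair of lines, 62 passed the pairwise threshold, beside 37.4% over all tested probe sets. The choice of members fixed this count and the spans and steps above in the same way, and nothing is read from them. The number of members called in a pair ran from 4 between F7025 and Cm484 to 8 between F7025 and F2 and 8 between F7033 and F98902. The share of all probe sets called in each single pair is not given here, so nothing is read from these numbers either.

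**Figure D1:**
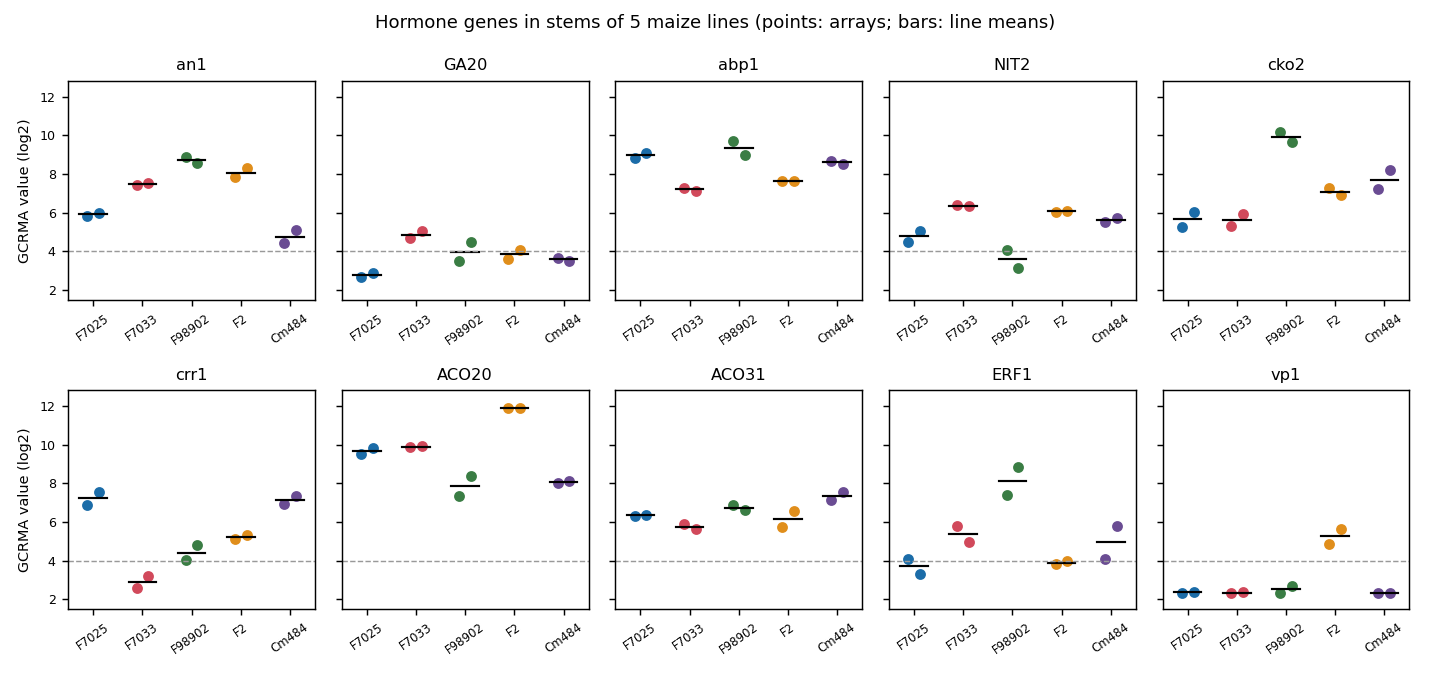
Level of each of the 10 hormone genes (GCRMA value, log2, vertical axis) in stems of the 5 lines (horizontal axis). Points are arrays, bars are line means (n = 2), and the dashed line marks the floor of 4. For vp1 the brightest of its 4 probe sets is drawn. an1, abp1, cko2 and ERF1 are highest in F98902, while ACO20 and vp1 are highest in F2.

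Gibberellin synthesis was represented by an early and a late enzyme. The gene an1 (anther ear1) encodes ent-copalyl diphosphate synthase, which makes the first committed intermediate of gibberellin, and mutants of it are short. Its log2 values were 8.86 and 8.58 in F98902, 7.82 and 8.29 in F2, 7.44 and 7.51 in F7033, 5.83 and 5.99 in F7025, and 4.43 and 5.09 in Cm484. No 2 lines overlapped, and each of the 4 steps in this order exceeded the spread of its neighbours. The mean was 8.72 ± 0.20 (SD, n = 2) in F98902 and 4.76 ± 0.47 in Cm484, a difference of 3.96 log2 or 15.5-fold. F98902 stayed the highest line and Cm484 the lowest whichever array was left out, with a span of 3.62 to 4.43 log2 over all alternatives.

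GA20 carries the name of the gibberellin 20-oxidase family, enzymes of the late steps of the pathway. It was dim throughout, and 6 of its 10 values were under 4. In F7033 it stood at 4.67 and 5.04 log2, the only line whose mean (4.85 ± 0.26) was over the floor. The values were 3.49 and 4.47 in F98902, 3.62 and 4.07 in F2, 3.66 and 3.51 in Cm484, and 2.68 and 2.87 in F7025. Both arrays of F7033 exceeded all others, yet the gap to F98902 was within the sum of the SDs, because the F98902 arrays differed by 0.97 log2. Of the 4 steps, the lowest alone, from Cm484 to F7025, exceeded the spread, and it lies below the floor. F7033 was at least 1.81-fold over F7025.

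The other gibberellin genes of a wider list were few and dim. The list covered other genes of the same hormones and of brassinosteroid, and the annotation named 48 of them, of which 36 were tested. KS, the kaurene synthase that follows an1 in the pathway, was between 2.43 and 2.83 log2 on every array and was not tested. The gene d3, a cytochrome P450 of a later step, did not pass (limma F-test adjusted p = 0.988). Its 2 values in F98902 were 2.75 and 5.98, a wider spread than that of the 5 line means.

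For auxin, abp1 encodes auxin-binding protein 1, a small protein of the endoplasmic reticulum and cell surface that binds auxin. Its log2 values were 9.68 and 8.96 in F98902, 8.82 and 9.10 in F7025, 8.69 and 8.49 in Cm484, 7.63 and 7.64 in F2, and 7.26 and 7.13 in F7033. F98902 and F7025 overlapped, and the remaining 3 steps downward exceeded the spread. F98902 (9.32 ± 0.51, n = 2) was 4.37-fold over F7033 (7.19 ± 0.09). Without the first F98902 array, F7025 became the highest line and the span was 1.76 log2.

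NIT2 encodes a nitrilase, an enzyme that in maize can turn indole-3-acetonitrile into the auxin indole-3-acetic acid. Its order was different from that of abp1, with F7033 highest at 6.41 and 6.32 log2. The values were 6.04 and 6.10 in F2, 5.51 and 5.72 in Cm484, 4.47 and 5.06 in F7025, and 4.08 and 3.14 in F98902. Every step exceeded the spread of its neighbours. The F98902 mean of 3.61 ± 0.67 was under the floor, so F7033 (6.37 ± 0.06) was at least 5.16-fold over it. The 2 auxin members thus had their extremes in the same 2 lines and in opposite order.

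All 5 tested auxin genes of the wider list passed the F-test, as did 73.9% of all tested probe sets, and 3 others (aux1, iaglu and BA1) were near 2 log2 on every array. The largest contrast was that of igl1, the indole-3-glycerol phosphate lyase that makes free indole. Its values were 5.43 and 5.45 log2 in F2, 5.91 and 6.09 in F7025, and 7.86 to 8.73 on the 6 arrays of the other lines. It was 4.57-fold lower in F2 than the mean of the other 4 lines (log2 difference −2.19 ± 0.12 SE, limma adjusted p = 5e-06). It was 3.28-fold higher in F7033 (adjusted p = 1.74e-05).

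The tryptophan synthase genes orp1 and orp2, whose product tryptophan is a precursor of auxin, had different highest lines. orp1 was at 8.92 and 9.06 log2 in F2 and was 3.33-fold higher there (limma adjusted p = 0.000601). It was 3.06-fold lower in F7033, at 5.95 and 6.66 (adjusted p = 0.000856). orp2 was at 8.46 and 9.41 log2 in F98902 and was 3.12-fold higher there (adjusted p = 0.000592), although its gap to F2, at 8.32 and 8.29, did not pass on its own (adjusted p = 0.106). NIT1, the second nitrilase of the annotation, was lowest in F7025 at 6.46 and 6.82 log2, 1.7-fold lower than the other lines (adjusted p = 0.00236). In F7033, where NIT2 was highest, NIT1 stood at 7.21 and 7.10 and did not pass (adjusted p = 0.482). abp4, a second auxin-binding protein gene, was 1.58-fold higher in Cm484 (adjusted p = 0.00185) and 1.46-fold lower in F2 (adjusted p = 0.0036).

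Cytokinin breakdown was represented by cko2, a cytokinin oxidase, which removes the side chain of the hormone. Its log2 values were 10.14 and 9.63 in F98902, 7.21 and 8.20 in Cm484, 7.28 and 6.89 in F2, 5.27 and 6.05 in F7025, and 5.33 and 5.95 in F7033. The lines fell into 3 levels, with F98902 alone at the top, Cm484 and F2 overlapping in the middle, and F7025 and F7033 overlapping at the bottom. F98902 (9.89 ± 0.36, n = 2) was 19-fold over F7033 (5.64 ± 0.44). Which of F7025 and F7033 was lowest changed when the second F7025 array or the first F7033 array was left out.

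The gene whose values lay nearest to those of cko2 was another cytokinin oxidase, cko3, measured by a probe set whose name ends in _s_at, a mark that its probes can match more than 1 transcript. After each probe set was centred on its own mean, the 2 differed by a root mean square of 0.16 log2 over 10 arrays, the smallest such distance among 855 named probe sets. Its values were 8.98 and 8.37 log2 in F98902, 6.33 and 7.00 in Cm484, 6.24 and 6.19 in F2, 4.39 and 5.16 in F7025, and 4.25 and 4.92 in F7033. cko3 was 8.65-fold higher in F98902 than the mean of the other 4 (limma adjusted p = 8.11e-05). The second probe set of cko3 was between 2.00 and 2.06 on every array. Whether the brighter probe set reads cko2 RNA was not tested, as probe sequences were not used here, so it is no independent measure of cytokinin oxidase. cko1 was between 2.56 and 3.51 log2 and was not tested. The second nearest gene to cko2 was gst30, at a distance of 0.35.

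**Figure D2:**
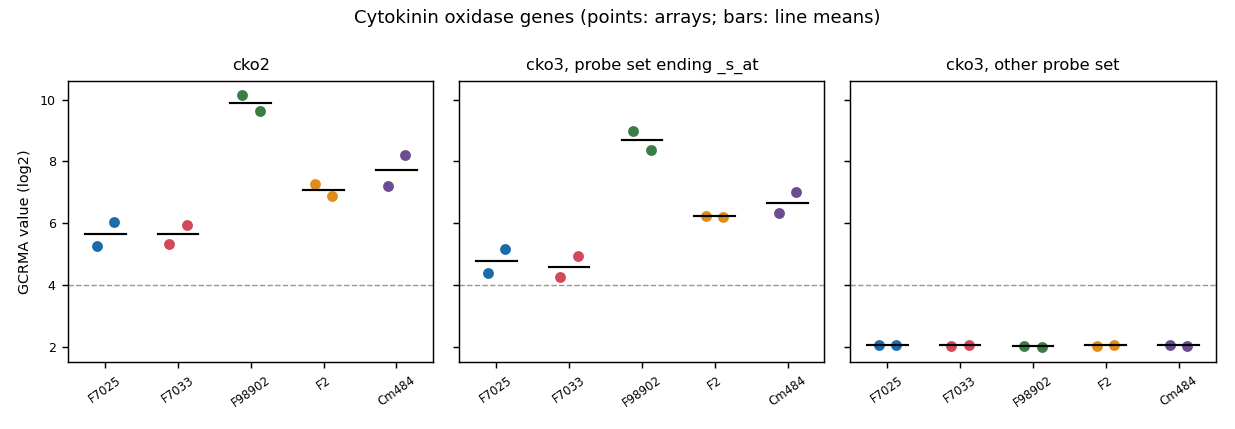
GCRMA values (log2, vertical axis) of cko2 and of the 2 probe sets of cko3 in the 5 lines. Points are arrays, bars are line means (n = 2) and the dashed line marks 4. cko2 and the first cko3 probe set have the same order of levels, with F98902 on top, and the other cko3 probe set lies at the floor in all lines.

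The cytokinin response regulator gene crr1 belongs to a class that cytokinin induces and that in turn dampens the response. Its log2 values were 6.87 and 7.57 in F7025, 6.94 and 7.35 in Cm484, 5.13 and 5.34 in F2, 4.01 and 4.83 in F98902, and 2.60 and 3.21 in F7033. F7025 and Cm484 overlapped at the top, and the other 3 steps exceeded the spread. F7025 (7.22 ± 0.49, n = 2) was at least 9.3-fold over F7033, whose mean of 2.90 ± 0.43 was under the floor. Cm484 became the highest line when the second F7025 array or the first Cm484 array was left out. F7033, lowest for crr1, and F7025, highest for crr1, were both at the bottom for cko2, and F98902, highest for cko2, was second from the bottom for crr1.

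Of the 16 tested cytokinin genes of the wider list, 13 passed the F-test, near the 73.9% of all tested probe sets. The single largest contrast of that list was in the relay. HP3, a histidine phosphotransfer protein, was at 2.50 and 2.58 log2 in F2 and between 7.31 and 8.39 on the 8 arrays of the other lines. F2 was at least 16-fold lower (log2 difference −5.46 ± 0.14 SE, limma adjusted p = 7.24e-08). The higher calls of HP3 in the other 4 lines rest on that low value, since the contrast of each includes F2. HP1 and hp2 from the same family were over 8.9 log2 on all arrays, and their highest lines were F7033 for HP1 (1.82-fold, adjusted p = 0.000311) and F98902 for hp2 (1.46-fold, adjusted p = 0.00286). The hp2 call was lost without the 3 arrays from 20 µg of RNA (adjusted p = 0.0703).

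Among the receptors, HK1 was at 7.15 and 6.98 log2 in F7025 and was 2.44-fold higher there (limma adjusted p = 0.000123). hk3 was likewise highest in F7025, at 6.30 and 6.09, and was 2.09-fold higher (adjusted p = 0.00111). The gap to the next line, Cm484, passed for neither gene (adjusted p = 0.0851 for HK1 and 0.092 for hk3). hk2 was instead highest in F7033 and F2, whose difference did not pass (adjusted p = 0.867), and was 2.35-fold lower in Cm484 (adjusted p = 0.000551). HK1 in F2 was 2.02-fold lower (adjusted p = 0.000345).

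Of the other response regulators of the induced class, crr2, RR5 and RR7 had their 2 highest means in Cm484 and F7025, the 2 lines with most crr1. The gap from Cm484 to F2, the next line down, did not pass for RR5 or RR7 (limma adjusted p = 0.0815 and 0.299). For RR7, an F2 array (6.95) lay over an F7025 array (6.46). RR4 and RR6 were highest in F98902, with means of 4.37 and 5.44 log2. crr2 was at 6.37 and 7.22 log2 in Cm484, 3.16-fold higher than the other lines (limma adjusted p = 0.00333). It was at 4.20 and 4.10 in F98902, 3.15-fold lower (adjusted p = 0.00257). Without the 3 arrays from 20 µg of RNA these calls were lost, with adjusted p of 0.13 and 0.0749. RR5 was at 5.58 and 5.44 log2 in F7033, 4.04-fold lower (adjusted p = 0.000425), and its gap to the next line, F98902, passed as well (adjusted p = 0.00873). RR7 was at 5.27 and 4.98 in F98902, 3.13-fold lower (adjusted p = 0.00117), and missed the threshold without the 3 arrays (adjusted p = 0.0712). RR9, of the class that acts as transcription factors, was instead highest in F7033 at 7.93 and 7.84, 2.6-fold higher (adjusted p = 0.000215). In glu1, a beta-glucosidase that can release cytokinin from its glucosides, the arrays of a line differed widely. It was at 1.95 and 5.24 in F98902 and at 9.15 and 6.36 in F7025, and its lower call in F98902 (adjusted p = 0.0194) was lost without the first F98902 array (adjusted p = 0.19).

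**Figure D3:**
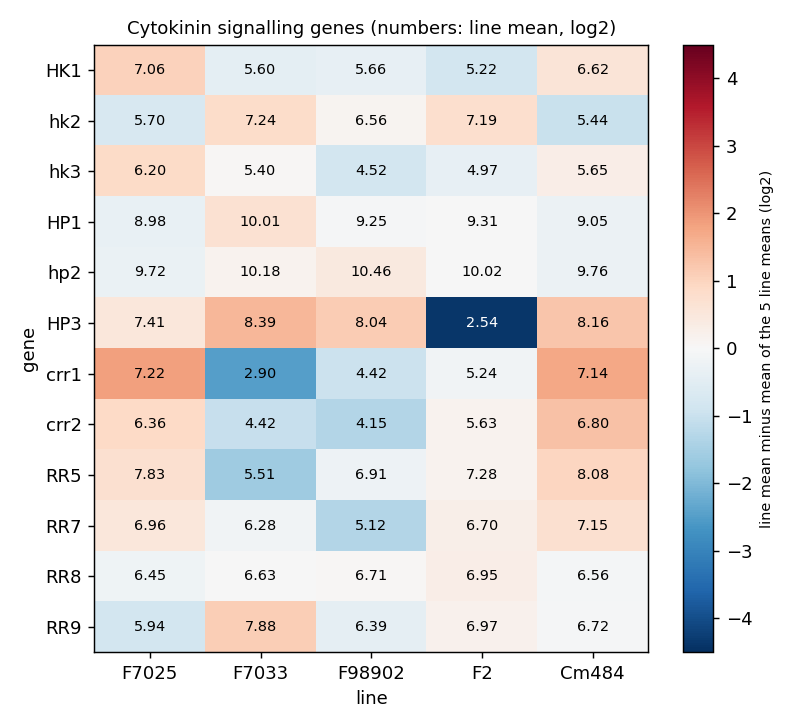
Line means (log2, n = 2, printed in each cell) of the cytokinin relay genes, with receptors (HK1, hk2, hk3), phosphotransfer proteins (HP1, hp2, HP3) and response regulators from top to bottom and the 5 lines from left to right. Colour gives the line mean minus the mean of the 5 line means on the log2 scale. HP3 in F2 (2.54) and crr1 in F7033 (2.90) are the darkest blue cells. Response regulators whose highest line mean was under 6, RR4 and RR6 among them, are not drawn.

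Ethylene is made from 1-aminocyclopropane-1-carboxylic acid by oxidases, and ACO20 and ACO31 are 2 of their genes. ACO20 values were 11.90 and 11.88 log2 in F2, 9.87 and 9.93 in F7033, 9.49 and 9.84 in F7025, 7.99 and 8.14 in Cm484, and 7.34 and 8.38 in F98902. F2 stood above every other array, F7033 and F7025 formed a middle level, and Cm484 and F98902 overlapped at the bottom. F2 (11.89 ± 0.01, n = 2) was 16.3-fold over F98902 (7.86 ± 0.73). Cm484 became the lowest line, with a span of 3.51 log2, without the first F98902 array.

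ACO31 varied least of the 10 genes, and its order was nearly the opposite. Its values were 7.11 and 7.54 log2 in Cm484, 6.86 and 6.60 in F98902, 6.33 and 6.36 in F7025, 5.73 and 6.57 in F2, and 5.90 and 5.63 in F7033. Cm484, F98902 and F7025 lay apart from each other, and F2 overlapped with both of its neighbours because its arrays differed by 0.84 log2. Cm484 (7.33 ± 0.30, n = 2) was 2.96-fold over F7033 (5.76 ± 0.19). F2 became the lowest line without its second array. Cm484 and F98902, the top 2 lines for ACO31, were the bottom 2 for ACO20.

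ERF1 carries the name of the ethylene response factors, transcription factors at the end of the ethylene signal. Its log2 values were 7.39 and 8.85 in F98902, 5.77 and 4.98 in F7033, 4.07 and 5.81 in Cm484, 3.83 and 3.97 in F2, and 4.09 and 3.32 in F7025. Both arrays of F98902 exceeded all others. The step from F98902 to F7033 exceeded the spread, and the 3 steps among the other 4 lines did not. F98902 (8.12 ± 1.03, n = 2) was at least 17.4-fold over F7025 (3.71 ± 0.54), whose mean was under the floor. The 2 arrays differed by 1.46 log2 in F98902 and by 1.73 in Cm484, the widest gaps of any member. The span of 4.41 log2 became 5.14 without the first F98902 array and 3.68 without the second, and F2 became the lowest line without the second F7025 array.

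The 3 tested genes that the wider list placed under ethylene all passed the F-test, which 73.9% of all tested probe sets passed. That placing was by name, and not each of them is specific to ethylene. dbf1, a transcription factor of the same large AP2/ERF family, was highest in F98902 too, at 10.93 and 11.76 log2 against 8.42 to 10.22 elsewhere. It was 4.55-fold higher there (limma adjusted p = 0.000926), a call lost without the 3 arrays from 20 µg of RNA (adjusted p = 0.0547). The ethylene receptor gene etr2 was 1.73-fold higher in F98902 (adjusted p = 0.0171), a call lost without the second F98902 array (adjusted p = 0.169). The second probe set of etr2 lay between 2.05 and 2.10 log2 on every array. sam2, an S-adenosylmethionine synthetase that feeds ethylene synthesis among other pathways, was 1.5-fold lower in F98902 (limma adjusted p = 0.000319). EREB1 reached 4 on 1 array only and was not tested.

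Abscisic acid response was represented by vp1 (viviparous1), a transcription factor best known from the maturing maize seed. Of its 4 probe sets, 1 had any value over 4. The probe set Zm.24.2.S1_at was at 4.86 and 5.64 log2 in F2 and between 2.32 and 2.70 on the 8 arrays of the other lines. F2 (5.25 ± 0.55, n = 2) was at least 2.38-fold over the others, and the order of those 4 lines lies below the floor. The other 3 probe sets, Zm.24.1.S1_at, Zm.24.2.A1_at and Zm.24.2.S1_a_at, lay between 1.72 and 2.55 on all arrays, F2 included. The probe sets of vp1 therefore disagreed in F2, and the reason was not tested.

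Markers of seed tissue were looked at beside vp1. Of 11 endosperm markers 6 were found, and their summed level on the log2 scale was 8.10 and 8.40 in F2 against 6.42 to 7.51 on the other arrays. The storage protein gene fl2 and the regulator o2 were under 4 on every array, at 2.13 to 2.43. The storage protein gene zp27 was over 4 on every array and was not highest in F2, with a mean of 6.60 there and 6.69 in F7025. The starch gene bt2 was highest in F2 with a mean of 7.42, and F7025 came next at 5.75. The starch genes wx1 and sh2 were dim, wx1 with 1 value over 4 (4.31, in F2) and sh2 with none. The part of these genes in the vp1 result, or in that of ACO20, was not tested.

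**Figure D4:**
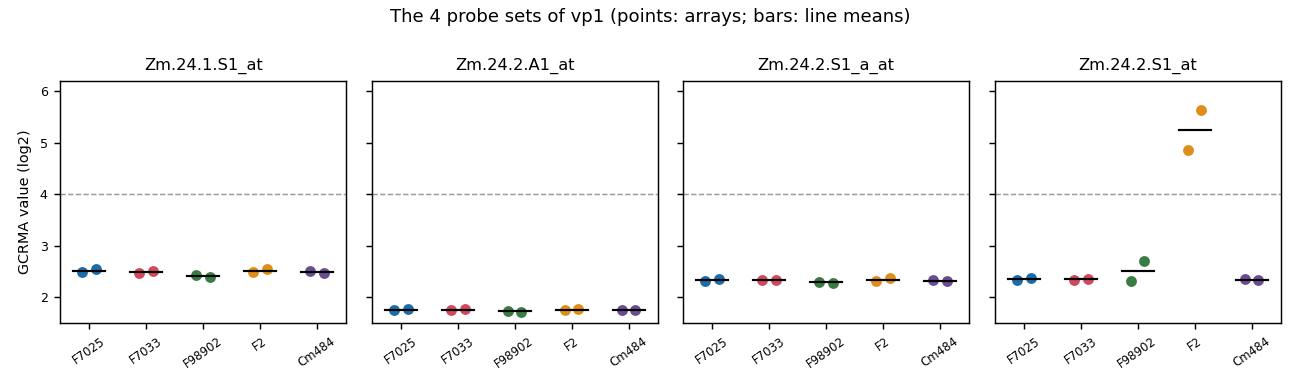
GCRMA values (log2, vertical axis) of the 4 probe sets of vp1 in the 5 lines. Points are arrays, bars are line means (n = 2) and the dashed line marks 4. Zm.24.2.S1_at is at 4.86 and 5.64 in F2, and every other value lies between 1.72 and 2.70.

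In the wider abscisic acid list, F98902 had 6 of 9 tested genes higher and 2 lower, beside 20.7% and 23.3% of all tested probe sets. F7033 had 2 higher and 4 lower, beside 22.2% and 23.2%. The list in F98902 had a median difference of 1.44 log2 against −0.04 over all tested probe sets. rab17, a dehydrin that abscisic acid induces, was at 7.59 and 8.31 log2 in F98902 and between 2.35 and 3.93 elsewhere. F98902 was thus at least 15.4-fold higher. rab17 passed the filter of 4 only through these 2 arrays, so no p-value is given. Its place among the 6 is no support, and neither is its part in the median of 1.44. The lower calls of rab17 in F7025, F7033 and Cm484 rest on that high value. The 6 also included asr1, with means of 14.10 log2 in F98902, 13.86 in F2 and 13.81 in F7033. Its gap from F98902 to F2 did not pass (limma adjusted p = 0.588). vp14, the dioxygenase that makes the first dedicated precursor of abscisic acid, was at 6.57 and 7.20 in F98902. It was at least 6.69-fold higher there (limma adjusted p = 6.05e-05). By its brightest probe set the dehydrin gene dhn2 was at 13.46 and 13.63 and was 3.81-fold higher (adjusted p = 0.000182). The other probe sets of dhn2 were highest in F98902 too, with means of 13.05 and 12.27. They gave wider gaps to F2, the next line, at 11.42 and 10.89, so the size of the difference depends on the probe set. The calcium-dependent kinase gene CDPK1 was at 9.43 and 9.96 and was 2.72-fold higher (adjusted p = 0.00194), and a different gene written cdpk1 was 1.37-fold higher (adjusted p = 0.0182), a call lost without either F98902 array (adjusted p = 0.0556 and 0.098).

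The 2 lower genes in F98902 were of other roles. pds1, a phytoene desaturase of the carotenoid pathway that supplies abscisic acid, was at 7.14 and 6.83 log2, 2.62-fold lower (limma adjusted p = 0.000176). PP2C, a protein phosphatase gene, was 1.34-fold lower by its brighter probe set (adjusted p = 0.0126), but not when the first F98902 array was left out (adjusted p = 0.0951). Its second probe set was at 4.35 and 4.34 in F98902, at 5.49 and 6.52 in F2 and at 9.58 to 9.76 elsewhere, so the 2 probe sets of this gene disagreed in size. Differences of sequence between lines under the probes were not tested, for PP2C, vp1 or any other gene.

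asr1, a gene induced by abscisic acid, stress and ripening, split the lines in another way. By its brighter probe set it was at 13.75 to 14.16 log2 on the 6 arrays of F7033, F98902 and F2, at 10.74 and 10.88 in F7025, and at 9.89 and 8.65 in Cm484. It was 14.7-fold lower in Cm484 (limma adjusted p = 2.1e-05) and 3.86-fold lower in F7025 (adjusted p = 0.000737). Its other probe set was low in Cm484 too, at 9.13 and 9.11 (log2 difference −4.02, adjusted p = 4.01e-08). In F7025 the other probe set was at 12.57 and 12.50, 0.26 log2 over the mean of the other 4 lines (adjusted p = 0.0252). That mean includes the low value of Cm484. By this probe set too, F7025 lay below F7033, F98902 and F2 (means 13.39, 13.21 and 13.41) and above Cm484. The 2 probe sets thus gave F7025 the same place among the lines and disagreed in the size of its difference. asr1 was also the gene nearest to the gibberellin gene an1, at a distance of 0.78 log2 over 10 arrays, and it shared with an1 the 2 lowest lines. A gene of no hormone list, a2, was almost as near to an1 (0.79) and had the same 2 lowest lines.

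**Figure D5:**
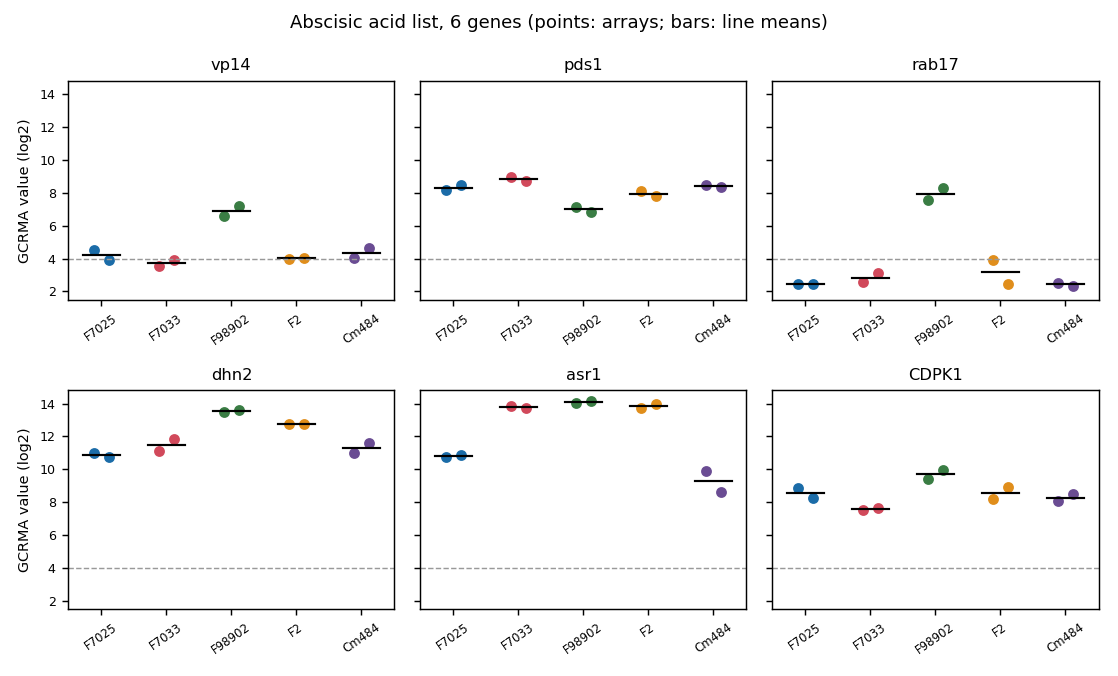
GCRMA values (log2, vertical axis) of 6 genes of the abscisic acid list in the 5 lines. Points are arrays, bars are line means (n = 2) and the dashed line marks 4. rab17 and vp14 are over 6 in F98902 alone, pds1 is lowest there, and asr1 is low in F7025 and Cm484.

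Over all 6 hormones, 30 of the 36 tested genes of the wider list passed the F-test, a share near the 73.9% of all tested probe sets. In F98902, 16 genes were higher and 13 lower than the mean of the other lines, beside 20.7% and 23.3% of all tested probe sets. Of the 16, rab17 and RR4 reached 4 log2 only on the F98902 arrays, so the filter kept them through the line where they were high. In F7025 the counts were 8 and 12, beside 16.6% and 20.8%, and in F7033 they were 7 and 12, beside 22.2% and 23.2%. In F2 they were 8 and 6, beside 25.4% and 17.7%, and in Cm484 they were 8 and 7, beside 18.4% and 18.5%. The median difference of the 36 genes lay between −0.08 log2 in Cm484 and 0.12 in F98902, beside −0.05 in F7025 to 0.10 in F2 over all tested probe sets. The brassinosteroid co-receptor genes serk2 and serk3 were both lower in F98902, by 1.75-fold (limma adjusted p = 0.000493) and 3.54-fold (adjusted p = 2.28e-05).

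A call against the mean of the other 4 lines does not set a line apart from its nearest neighbour. That gap did not pass for the calls given above of orp1 in F7033, orp2, abp4, hp2, hk2, crr2, glu1, etr2, cdpk1 or PP2C. It did not pass for HK1 in F2 or asr1 in F98902 either.

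Several of these counts rested on single arrays. The higher count of F7025 fell to 4 without its second array, and the lower count of F7033 fell to 4 without its first. The higher count of F2 fell to 4 without its first array and to 3 without its second. The higher count of Cm484 fell to 5 without its second array. The lower count of Cm484 became 2 without its first array, and 4 without its second, without either F2 array or without the second F7033 array. Without the 3 arrays from 20 µg of RNA, F98902 had 11 higher and 8 lower, F2 had 3 and 4, and Cm484 had 2 and 3.

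Among the members compared, the closest match was that of cko3 to cko2 (0.16 log2), by a probe set not tested for reading cko2 RNA. The next gene for cko2, gst30 (0.35), was about as near as the nearest to GA20 or vp1. For other members the nearest were asr1 for an1 (0.78), SH-1 for GA20 (0.36), LON2 for abp1 (0.48) and GST39 for NIT2 (0.44). They were SPP2 for crr1 (0.76), bt2 for ACO20 (0.69) and incw1 for ERF1 (0.79). For vp1 the nearest was Agpat4 (0.32), whose mean was 5.74 in F2 and under 4 in the other lines. atGRF2, at 6.10 in F2, was second both for vp1 (0.38) and for ACO20 (0.81). The members compared here varied around their own means by a root mean square of 0.72 log2 (GA20) to 1.68 (ERF1). Equal distances are therefore not equal likeness. The distances describe 10 arrays of 5 lines, in which the 2 arrays of a line are alike for most genes.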

How the data were processed

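Stem RNA of 5 maize lines, 2 arrays each, was analysed from 1 deposited table of log2 values per probe set, which the authors made with GCRMA (per the submitters' processing notes), a method that corrects background by probe sequence, normalizes between arrays and sums up probes. Its version and the build are not given in the sources used here. The values ran from 1.35 to 14.6, from which the log2 scale was taken. No further normalization was applied, and the number of arrays limits the precision.

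The 113 control probe sets were left out of 17734, and the 11067 that reached 4 on 2 arrays or more entered the tests. Genes were named from the platform annotation of probes, with synonyms from the reference table of B73 genes, matched on gene ID. One probe set whose name differed from abp1 only in case was left out, being a different gene. The brightest probe set stood for a gene. No coordinates or sequences are printed, because the build was not given.

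limma 3.58.1 in R 4.3.3 (lmFit, eBayes with a variance trend) fitted 10 arrays with line as the only term. Residual degrees of freedom were 5, with 3.09 from the prior. The F-test, 5 contrasts of a line with the mean of the other 4 and 10 pairs were each adjusted over all tested probe sets by the Benjamini-Hochberg method at 0.05, with no adjustment across contrasts. Python 3.11.15, pandas 2.3.3 and matplotlib 3.10.9 handled tables and plots. The fit was tested on simulated data.

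The members and gene lists were chosen with earlier results of these data known. abp2 and abp3 (actin-binding) and arf1 (an ambiguous symbol) were left out of the wider list once the annotation was seen. Genes of that list are named where a line contrast passed and the highest line mean was at least 6, and d3, RR4, RR6, KS, aux1, iaglu, BA1, cko1 and EREB1, which fall outside this rule, were named after their values were seen. The nearest genes are the 2 tested probe sets, each of another gene with a readable name, with the smallest root mean square difference over 10 arrays after centring, for members spanning at least 2 log2. Names of the clone type were dropped from the readable ones after a first output had named one. Alternatives were other filters, scalings and weights, a replicate block, and leaving out each array or the 3 arrays from 20 µg of RNA.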

Additional observations from a re-analysis of the deposited data

How the results depend on the processing

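Without the 3 arrays from 20 µg of RNA, 4932 probe sets differed among lines (8176 with all arrays), 22888 combinations of probe set and pair passed (41422), and the wider list gave 31 higher calls over the 5 lines (47). This alternative leaves 3 lines with 1 array each, assumed to vary like the others. Leaving out 1 array at a time gave 6737 to 8532 probe sets, 32080 to 44108 combinations, 10 members past the F-test each time, 54 to 66 member combinations (62), 28 to 31 listed genes past the F-test (30), and 39 to 47 higher and 39 to 49 lower calls (50). With the replicate number as a block, the counts were 8069, 41410, 10, 63, 30, 46 and 50. The labels do not say whether the number marks a shared day, plot or batch. Deviations of same-numbered arrays correlated between −0.381 and 0.375 over 10 pairs of lines (median 0.0618), and such mixed values cannot decide it. With a filter at 6, 8 members were left past the F-test. Of 94 calls of named listed genes, 44 passed under all alternatives, 50 were lost under at least 1, 34 of them without the 3 arrays, and none changed sign. Of 133 recomputed member spans, 115 moved by less than the spread between arrays and 18 by more. Counting the 3 genes left out by name, chosen after seeing the data, gave 31 listed genes past the F-test. Dim probe sets limit GA20, vp1, and the low lines of NIT2, crr1 and ERF1.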
